A study of Arabidopsis thaliana with 8 samples.

Results

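The genes described here are the SAUR (small auxin up RNA) genes of Arabidopsis thaliana and the other genes whose probe description speaks of an auxin-responsive or auxin-induced product. They were taken by words in the array's description column (SAUR, auxin-responsive or auxin-induced), leaving out every description that also names IAA, indoleacetic acid or GH3, and 97 of the 24648 loci on the array met that rule. Of these, 73 carry a SAUR number in RefSeq. A further 10 are of the AIR12 type by a description that names AIR12, 9 are auxin response factors (ARF) and 4 are TCP transcription factors. The last, AT1G17350, has no SAUR number and is tied to SAUR by its probe description alone. It is counted with the SAUR genes below, which makes 74. The array label of a small auxin-responsive gene therefore fits the SAUR genes, while the ARF and TCP genes encode transcription factors that only share the wording. Where a locus had several probes, the brightest at 3 d stood for it.

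SAUR genes encode short, unstable proteins, and many of their transcripts rise soon after auxin reaches a tissue. The best studied of them bind and inhibit PP2C.D phosphatases at the plasma membrane, which keeps plasma membrane proton pumps active, acidifies the cell wall and lets cells expand. Auxin acts on such genes through TIR1/AFB receptors, which remove Aux/IAA repressors from ARF activators, and many SAUR genes lie in tandem arrays of close copies.

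RNA of 2 crosses was compared on 2-colour arrays. Embryos of the female line M0191 pollinated by bdl (the bdl cross) were set against embryos of the female line M0171 pollinated by Col-0 (the Col-0 cross), at 3 d and at 6 d after pollination, with 4 arrays a stage. The ecotype was given as Col-0 for both crosses. In bodenlos (bdl), as known from other work, the Aux/IAA protein IAA12 resists degradation and keeps the response factor MP restrained. The labels describe M0191 and M0171 no further, and female and male parents both differed between the crosses, so the parts of the parents cannot be told apart. By the labels, dyes were exchanged between arrays, with Cy5 on the bdl cross for replicates 1 and 2 and Cy3 for replicates 3 and 4. Blank spots of the 3 d arrays grouped replicate 1 with 4 and 2 with 3 instead, as given with the processing. The main tests kept the dyes of the labels. A log2 ratio above 0 means more signal in the bdl cross, values after ± are standard errors of the fit, and a gene was called where its limma p, adjusted over all genes tested, was under 0.05.

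The 3 d arrays held values for 22337 to 25331 of 27530 gene spots, with median signals of 319 to 351 for the bdl cross and 315 to 350 for the Col-0 cross. The low deposited signals, the only ones checked, are square roots of whole numbers for a reason not given, so folds are those of the deposited values. For 6 d, log2 ratios alone were used, without signal levels, and their direction rests on the convention that the same table follows at 3 d. Log2 ratios correlated at 0.665 to 0.852 between arrays of 3 d (genes with both signals above blank spots) and at 0.633 to 0.733 between arrays of 6 d. All 8 embryo markers checked, among them LEC1 and WOX2, lay above blank spots in both crosses on at least 2 arrays at 3 d. So did 6 of 7 endosperm and 9 of 9 seed coat markers, whose values stand beside the 6 d results. In such bulk RNA, fewer cells of a type and less RNA per cell cannot be told apart.

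Not every gene gave a signal that could be tested. At 3 d, 73 of the 97 genes (75.3%) had a signal above the 95th percentile of blank spots on at least 2 arrays, against 80.4% of all loci on the array. Of the 74 SAUR genes, 54 (73.0%) reached that level and 10 (13.5%) were above it in neither cross on any array, against 10.3% of all loci. A test was possible for 67 genes at 3 d, since 6 more had values on fewer than 3 arrays. At 6 d 59 genes were tested, 22 had values on fewer than 3 arrays and 16 had none. Of those 16, 13 had a value on fewer than 2 arrays at 3 d and so could not be matched to a row of 6 d ratios. Both stages were tested for 54 genes and neither for 25, of which 22 are SAUR genes.

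The untested genes include several of the best known. SAUR10 (AT2G18010), linked to growth and branch angle, lay above blank spots on no array at 3 d. SAUR15 (AT4G38850), a promoter of lateral roots, was above them in the bdl cross on 1 array. Its neighbours SAUR14 (AT4G38840) and SAUR16 (AT4G38860), known from the opening of cotyledons in light, had values on 2 and 3 arrays at 3 d. SAUR14 read 212.9 and 356.1 in the bdl cross against 213.0 and 342.5 in the Col-0 cross, on replicates 1 and 4. No difference between the crosses is given for these 4 genes.

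At 3 d few SAUR genes passed the test. Of 48 tested, SAUR40 and SAUR47 rose and SAUR29 fell, which is 6.2% against a background of 13.1% of all 19218 genes tested. Over all 97 genes, 4 rose and 6 fell of 67 tested (14.9%), where 7.01% of all genes rose and 6.1% fell. The median log2 ratio was −0.13 for the SAUR genes tested, and fits that were not called ranged up to 2.34 (SAUR5). The median size of the log2 ratio was 0.36 over the 67 genes and 0.29 over all genes, and 5 of the 67 genes (7.46%) had a log2 ratio of at least 1 in size, against 7.94% of all genes.

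SAUR40 (AT1G79130) belongs with SAUR41, SAUR71 and SAUR72 to a small branch of the family whose members act on cell expansion. Its signals on the 4 arrays were 264.8, 217.3, 193.3 and 313.0 in the bdl cross and 149.4, 127.5, 106.9 and 186.5 in the Col-0 cross. The bdl cross was higher on each array, and the 2 sets of signals did not overlap. The fold was 1.74 (log2 0.80 ± 0.06, limma adjusted p = 0.0301).

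SAUR47 (AT3G20220) had the largest rise called at 3 d among these genes, 2.87-fold. Its signals were 338.9, 518.8, 209.4 and 186.7 in the bdl cross and 114.0, 153.1, 87.9 and 65.8 in the Col-0 cross, again without overlap. The log2 ratios of the arrays were 1.57, 1.76, 1.25 and 1.51, with a fit of 1.52 ± 0.08 (limma adjusted p = 0.0273).

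The fall of SAUR29 (AT3G03820) rests on 1 array. Its log2 ratios were 0.05 and −0.12 on replicates 1 and 2, near equality, and −4.07 on replicate 4, where the signals were 1.73 and 29.1 and both lay below blank spots. The fit of −2.05 ± 0.10 (limma adjusted p = 0.0323) gives that array as much weight as the other pair together, and with no dye term the adjusted p was 0.417. When 1 array was omitted from the fit with the dye term, none of the 10 calls of 3 d remained. Over all genes tested, 0 were called in each of those fits too, and the cause was not tested. In such fits with no dye term, SAUR40 and SAUR47 were called in each of the 4 fits. SAUR29 had only 1 such fit, the one without the array that lacked its value, and was not called there.

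**Figure D1:**
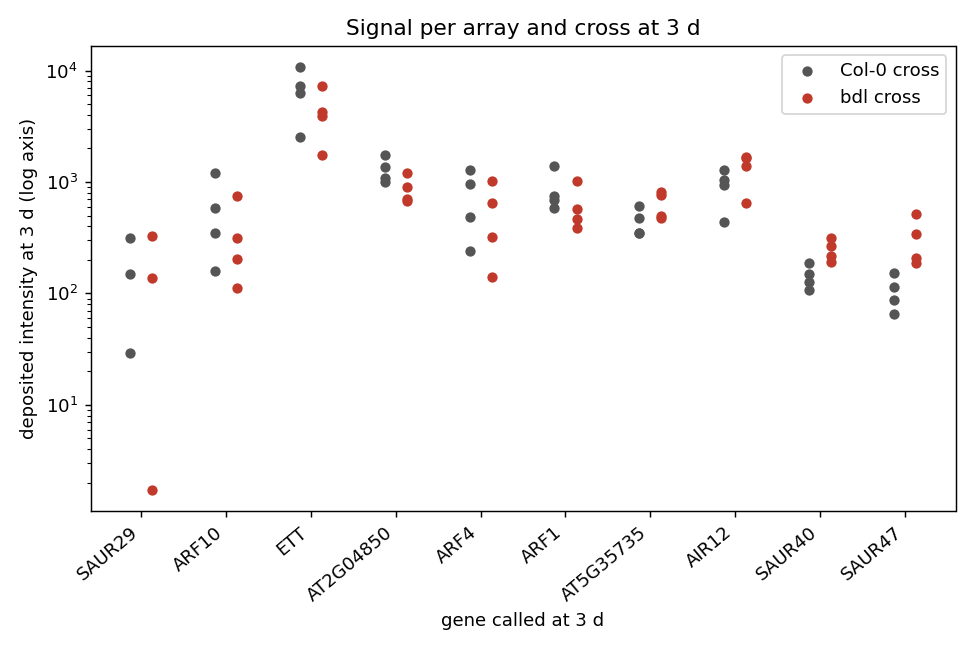
Deposited intensity at 3 d (log axis) of the 10 genes called at 3 d, ordered from the lowest to the highest log2 ratio; each point is 1 array, grey for the Col-0 cross and red for the bdl cross. The signals of SAUR40 and SAUR47 do not overlap between the crosses, while SAUR29 has 2 arrays with like signals and 1 with signals of 1.73 and 29.1.

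At 6 d more SAUR genes rose than fell. Of 42 tested, 14 rose (33.3%) and 4 fell (9.5%), with a median log2 ratio of 0.25. Among all 19972 genes tested, 26.7% rose and 26.7% fell, and 53.4% were called in all, against 42.9% of the SAUR genes. Of the 59 genes of all classes tested, 19 rose (32.2%) and 10 fell (16.9%), 49.2% in all, so calls were no more frequent here than over the whole array. Of these 59 genes, 14 had values on 3 arrays, where the fit rests on 1 residual degree of freedom. On the 29 SAUR genes with all 4 arrays, 8 rose (27.6%) and 3 fell (10.3%). On the 13 with 3 arrays, 6 rose (46.2%) and 1 fell (7.7%). These SAUR counts are from the main fit. In a separate fit of only the genes with 4 arrays, 5318 rose and 5438 fell of 17792 genes of all kinds. In that fit 13 rose and 10 fell of the 45 genes of all classes here. With all 4 arrays, the share of SAUR genes that rose in the main fit was near that of all genes in the separate fit. The share that fell was lower.

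The rises held up best in SAUR19, SAUR41, SAUR65, SAUR78 and SAUR8. Together with the fall of SAUR53 they make up the 6 SAUR genes that were called at 6 d whichever of the 4 arrays was omitted in a fit with the dye term. SAUR19 (AT5G18010) is the gene in which the inhibition of PP2C.D phosphatases was worked out. It rose 2.98-fold, with log2 ratios of 1.65, 1.60, 1.61 and 1.45 on the 4 arrays (1.58 ± 0.07, limma adjusted p = 0.00261).

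At 3 d SAUR19 was well above blank spots, at 3800, 4961, 5767 and 4163 in the bdl cross and 4559, 5060, 6163 and 4816 in the Col-0 cross. These ranges overlap, and the log2 ratio of −0.15 ± 0.08 was not called (limma adjusted p = 0.27). The 3 d ratios lay between −0.26 and −0.03 and the 6 d ratios between 1.45 and 1.65, so the stages did not overlap.

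SAUR41 (AT1G16510), which modulates cell expansion and auxin movement in hypocotyls and roots, also rose at 6 d alone in these calls. Its log2 ratios at 6 d were 1.63, 1.44, 1.45 and 1.51 (1.51 ± 0.07, 2.85-fold, limma adjusted p = 0.00271), with all 4 arrays close together. At 3 d the ratios were 0.31, 0.16, 0.21 and 0.30 (0.24 ± 0.07, adjusted p = 0.106), on the same side on each array but not called.

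SAUR65 (AT1G29460) read 1.53, 2.00, 1.33 and 1.55 at 6 d (1.60 ± 0.12, 3.04-fold, limma adjusted p = 0.00428). SAUR78 (AT1G72430), whose product binds ethylene receptors, read 1.76, 2.24, 1.95 and 2.04 (2.00 ± 0.11, 3.99-fold, limma adjusted p = 0.00308). SAUR8 (AT2G16580) read 1.47, 1.27, 1.68 and 1.25 (1.42 ± 0.11, 2.67-fold, limma adjusted p = 0.00463). In all 3 genes every array of 6 d lay above every array of 3 d. These genes, like SAUR19, were picked for their 6 d rise, which favours such a gap. Their 3 d signals differed in quality: SAUR65 was above blank spots on all 4 arrays, SAUR78 on 2 in each cross, and SAUR8 on 2 in the bdl cross and 3 in the Col-0 cross.

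SAUR2, SAUR4 and SAUR5 also rose at 6 d, each from 3 arrays and a fit with 1 residual degree of freedom. SAUR2 (AT4G34780) read 1.61, 3.34 and 3.73 (3.10 ± 0.52, 8.60-fold, limma adjusted p = 0.0435). SAUR4 (AT4G34800) read 3.07, 2.60 and 1.49 (2.16 ± 0.16, adjusted p = 0.0126), and SAUR5 (AT4G34810) read 2.36, 2.62 and 1.05 (1.77 ± 0.12, adjusted p = 0.0102). All 3 lack a value on replicate 4, all arrays are above 1 on the log2 scale, and all 3 were also called with no dye term. SAUR2 was above blank spots in both crosses on all arrays of 3 d, with signals of 307.2 to 692.4 in the bdl cross and 222.3 to 607.8 in the Col-0 cross. SAUR5 was above them on 3 arrays in the bdl cross and 1 in the Col-0 cross. SAUR4 was above them on 1 and 2, and on replicate 3 it read 80.0 against 1844.

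SAUR47 was the only SAUR gene called at both stages, of 38 tested at both. At 6 d it read 2.10, 1.38 and 0.60 on replicates 1, 3 and 4 (1.55 ± 0.24, 2.92-fold, limma adjusted p = 0.0398), next to 1.52 at 3 d. SAUR40, the other gene raised at 3 d, read −0.76, 1.08, 2.93 and −1.14 at 6 d (0.53 ± 0.89, adjusted p = 0.658), so its arrays fell on both sides of equality.

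The other 5 rises, named here to complete the count after their values were seen, were those of SAUR21, SAUR33, SAUR54, SAUR35 and AT1G17350. Of these, AT1G17350 counts as SAUR by its probe description alone. SAUR54 (1.22 ± 0.19, limma adjusted p = 0.017), SAUR35 (0.58 ± 0.07, adjusted p = 0.0114) and AT1G17350 (0.31 ± 0.06, adjusted p = 0.0291) had all 4 arrays. When 1 array was omitted, again with the dye term, SAUR54 was called in 2 fits of 4, SAUR35 in 3 and AT1G17350 in 0. SAUR33 (1.36 ± 0.22, adjusted p = 0.041) had 3 arrays. SAUR21 (AT5G18030), of the same cluster as SAUR19, read 0.04, 0.52 and 2.67 (1.48 ± 0.17, adjusted p = 0.0234), and with no dye term its adjusted p was 0.254.

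**Figure D2:**
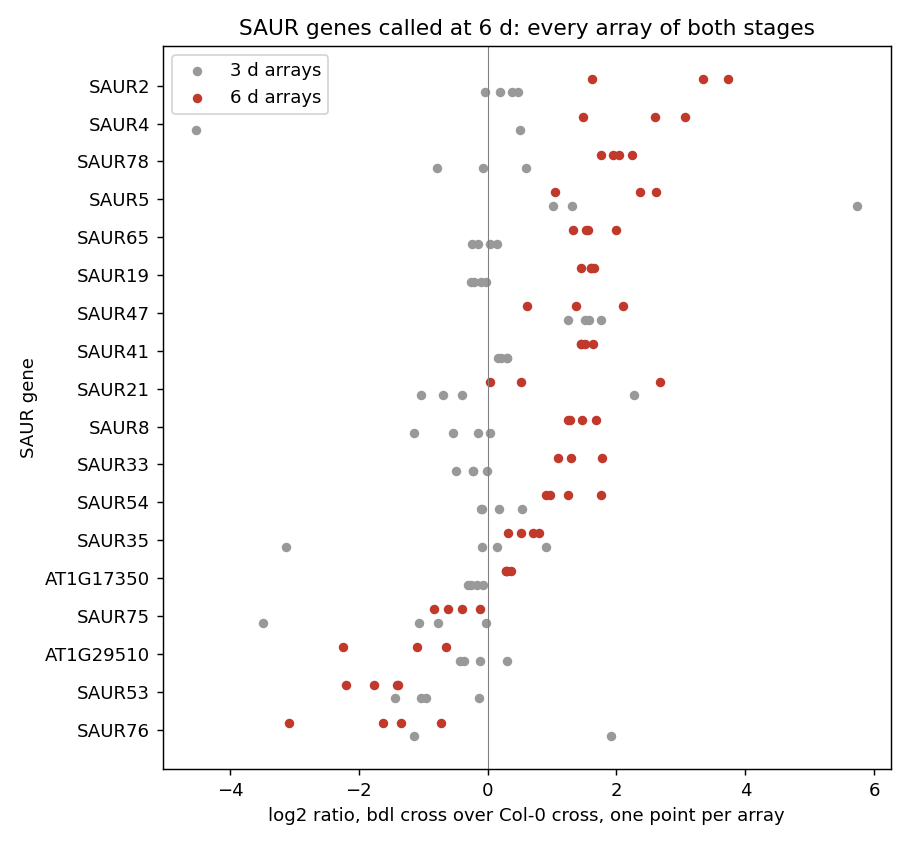
Log2 ratio (bdl cross over Col-0 cross) on each array for the 18 SAUR genes called at 6 d, ordered by their 6 d fit; grey points are 3 d arrays and red points 6 d arrays. For SAUR19 the 6 d arrays lie between 1.45 and 1.65 and the 3 d arrays between −0.26 and −0.03, while SAUR47 is raised at both stages.

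Falls were fewer among the SAUR genes. SAUR53 (AT1G19840) read −1.40, −1.76, −1.40 and −2.19 at 6 d (−1.69 ± 0.18, 3.22-fold lower, limma adjusted p = 0.00825). It was lower in the bdl cross on each array of 3 d too, at −0.13, −0.95, −1.44 and −1.03, where the fit of −0.89 ± 0.19 was not called (adjusted p = 0.0739). The stage difference of −0.80 ± 0.28 was not called either (adjusted p = 0.0592).

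SAUR76 (AT5G20820), known from root growth and ethylene response, read −3.09, −1.34, −1.62 and −0.72 at 6 d (−1.69 ± 0.40, limma adjusted p = 0.0419). When 1 array was omitted it was called in 1 fit of 4, with adjusted p of 0.0374 to 0.132, and at 3 d it lay above blank spots on no array. SAUR75 (AT5G27780), which with SAUR62 is known from pollen tube growth, read −0.62, −0.82, −0.12 and −0.39 (−0.49 ± 0.09, adjusted p = 0.0241) and was called in 0 of those 4 fits. AT1G29510, which shares the SAUR68 name with AT1G29490, read −1.09, −0.65 and −2.24 (−1.56 ± 0.16, adjusted p = 0.0193) and missed the threshold with no dye term (adjusted p = 0.0629). All arrays were below 0 in each of these genes.

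Several well-studied SAUR genes did not pass the test at 6 d. SAUR32 (AT2G46690), whose excess abolishes the apical hook, had the highest fit of all, 3.75 ± 0.97, from arrays at 2.20, 1.79, 7.93 and 3.08 (limma adjusted p = 0.0521). SAUR72 (AT3G12830) read −0.35, −1.53, −0.41 and −0.42 (−0.68 ± 0.24, adjusted p = 0.101), and SAUR50 (AT4G34760), a light-regulated gene of cotyledons and hook, read −0.05, −0.38, −0.34 and 0.02 (−0.19 ± 0.11, adjusted p = 0.26). In the first, replicate 3 stands far from the others, and in SAUR72 replicate 2 does. SAUR36 (AT2G45210), known from leaf senescence, gave −0.79 ± 0.61 (adjusted p = 0.356). SAUR62 (AT1G29430) gave 0.45 ± 0.85 (adjusted p = 0.706), with arrays at −1.21, 1.66 and 0.67 on both sides of 0. SAUR71 (AT1G56150) was tested at 3 d alone, at −0.28 ± 0.61 (adjusted p = 0.769).

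The change of the log2 ratio from 3 d to 6 d (6 d minus 3 d) was tested with the 8 arrays fitted together; it is signed, so a positive value can also mean a smaller fall. Of 54 genes of all classes tested, the difference was positive and called in 16 and negative and called in 4, 37.0% in all, against 44.6% of 18836 genes (23.9% positive and 20.7% negative). Among 38 SAUR genes, 11, with AT1G17350 among them, were positive and 1, AT1G29510, was negative (31.6%), and the median difference was 0.36. The negative call missed the threshold with no dye term (adjusted p = 0.0541) and with a replicate block (adjusted p = 0.0624). Of the 19 genes that rose at 6 d, SAUR4 had no tested difference, and 13 had a positive difference that was called. The 6 d ratio is part of the difference, so genes picked for a 6 d rise favour a positive one. The like count over all genes was not taken. The differences of SAUR19 (1.73 ± 0.09, limma adjusted p = 3.5e-05) and SAUR41 (1.27 ± 0.08, adjusted p = 8.4e-05) had the smallest adjusted p. SAUR2 (2.73 ± 0.52, adjusted p = 0.00952), SAUR78 (2.08 ± 0.36, adjusted p = 0.00645) and SAUR8 (1.87 ± 0.28, adjusted p = 0.00222) were the largest that were called among the SAUR genes. For SAUR47 the difference was −0.06 ± 0.28 (adjusted p = 0.883), and the 3 d value of SAUR5, with arrays at 1.30, 1.01 and 5.74, left its difference at −0.57 ± 1.65 (adjusted p = 0.813). Ratios spread more widely over the table at 6 d (SD 1.25 to 1.49 per array) than at 3 d (0.90 to 1.02), and scaling all arrays to equal spread changed some differences. It took SAUR41 to 0.72, SAUR2 to 1.70, AT1G29510 to −0.86 and ARF10 to 0.90, all still called, SAUR78 to 1.55 (adjusted p = 0.0618) and SAUR47 to −1.10 (adjusted p = 0.0168).

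**Figure D3:**
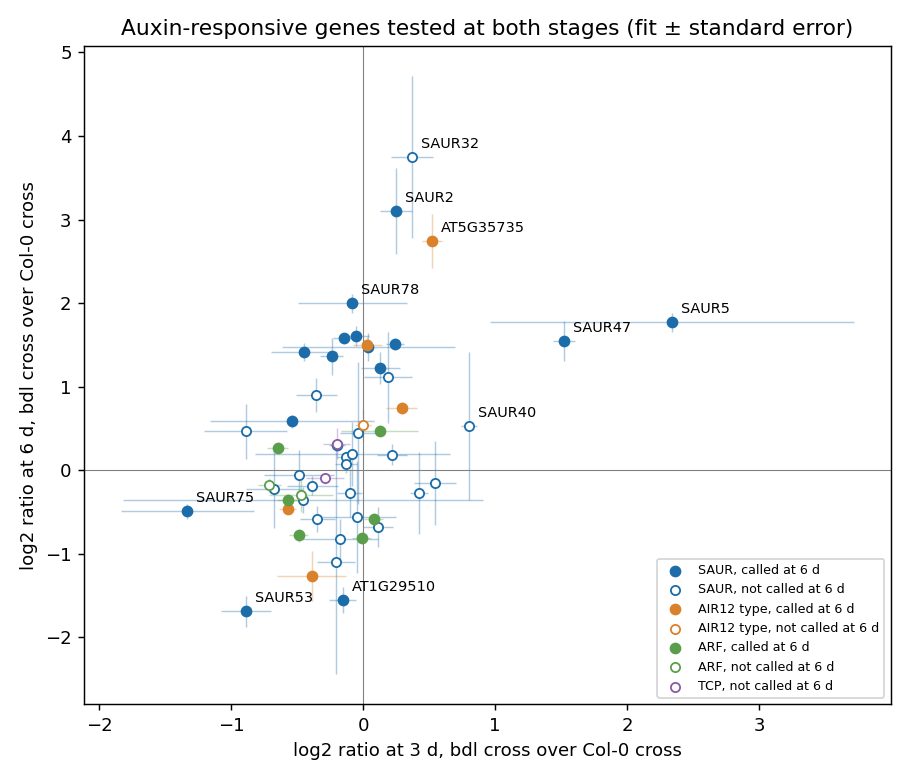
Log2 ratio at 6 d against log2 ratio at 3 d for the 54 genes tested at both stages, coloured by class, with standard errors as lines and filled points for genes called at 6 d. SAUR19, SAUR41, SAUR65 and SAUR78 lie between −0.15 and 0.24 at 3 d and between 1.51 and 2.00 at 6 d, whereas SAUR47 lies at 1.52 and 1.55.

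Genes of 1 tandem array did not all move one way. In all, 40 of the 97 genes lie in 10 clusters, defined as genes with at most 5 others between neighbours in the RefSeq order. In the chromosome 1 cluster from SAUR61 to AT1G29510, 7 genes were tested at 3 d and 0 called, against 13.1% of all genes. At 6 d, 1 rose (SAUR65) and 1 fell (AT1G29510) of 6, a span of 1.60 to −1.56 on the log2 scale. Of all genes, 26.7% rose and 26.7% fell at 6 d. The other 4 tested there were SAUR61 (−0.27), SAUR62 (0.45), SAUR63 (−0.06) and AT1G29490 (−1.10), and these log2 ratios were not called.

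In the chromosome 4 cluster from SAUR49 to SAUR5, 3 of 5 tested at 6 d rose (SAUR2, SAUR4 and SAUR5), where 26.7% of all genes rose. The log2 ratios of SAUR49 (−0.15 ± 0.50) and SAUR50 (−0.19 ± 0.11) were not called. In the chromosome 5 cluster from SAUR19 to SAUR24, 2 of 3 tested rose, and SAUR23 was at −0.56 ± 0.67. The neighbours SAUR54 and SAUR53 on chromosome 1 were called in opposite directions, at 1.22 and −1.69. The SAUR genes in clusters (8 rose and 3 fell of 24) and outside them (6 rose and 1 fell of 18) had like shares that rose, 33.3% each. Among all genes 26.7% rose and 26.7% fell. No probe sequences were used here, and cross-hybridisation between neighbours was not tested.

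**Figure D4:**
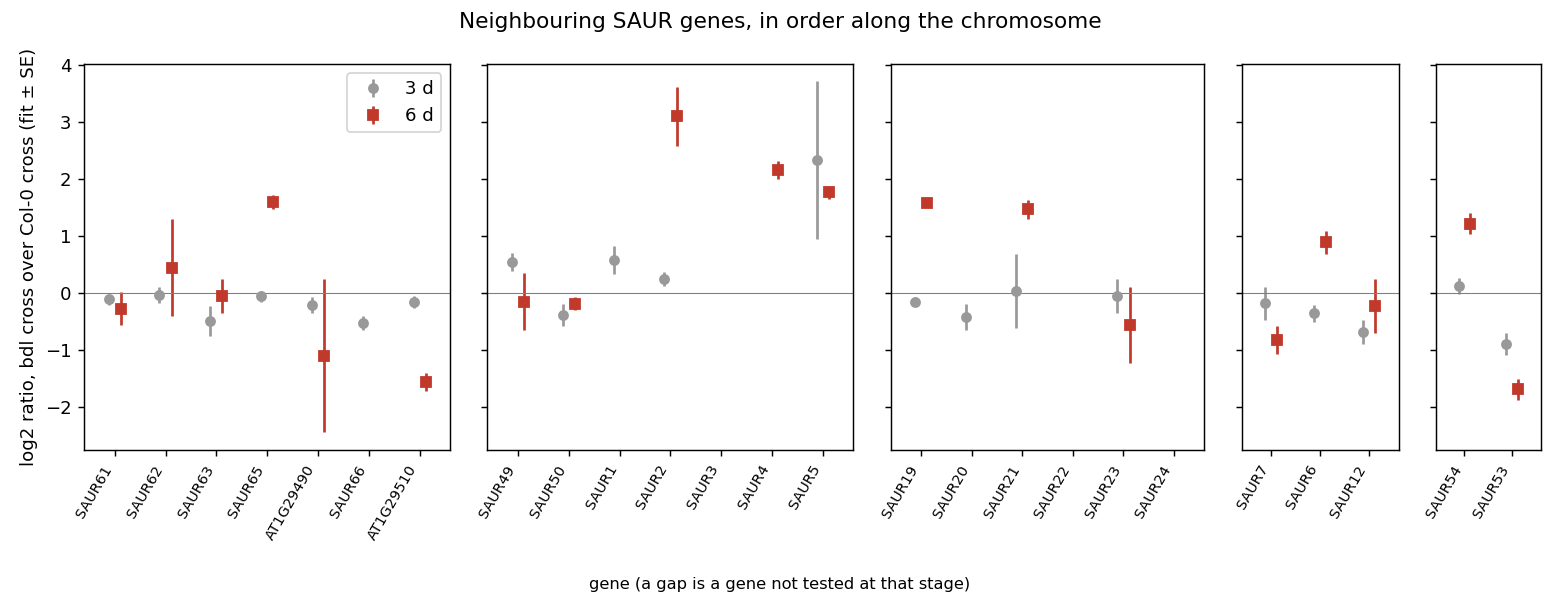
Fitted log2 ratios with standard errors at 3 d (grey circles) and 6 d (red squares) for neighbouring SAUR genes in chromosome order, 1 panel per cluster. At 6 d SAUR65 (1.60) and AT1G29510 (−1.56) of 1 cluster and SAUR54 (1.22) and SAUR53 (−1.69) of another differ in direction, and the 3 d values of the first cluster lie between −0.53 and −0.04.

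Genes of the AIR12 type encode plasma membrane cytochromes, named after AIR12, a gene first found as auxin-induced in root cultures. At 3 d 2 rose and 1 fell of 8 tested, and at 6 d 3 rose and 2 fell of 6, where 13.1% and 53.4% of all genes were called. AIR12 (AT3G07390) had signals of 1396, 1667, 652.0 and 1655 in the bdl cross and 934.2, 1045, 433.0 and 1289 in the Col-0 cross at 3 d. The bdl cross was higher on each array, though the ranges overlap, by 1.47-fold in the fit (log2 0.55 ± 0.08, limma adjusted p = 0.0426). At 6 d it had 2 values, −1.73 and −0.58, and was not tested.

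AT5G35735 rose at both stages. Its fit was 0.52 ± 0.08 at 3 d (limma adjusted p = 0.0472) and 2.74 ± 0.32 at 6 d (6.67-fold, adjusted p = 0.025), where 3 arrays read 3.49, 2.43 and 2.52. Each 6 d array exceeded each 3 d array, and the difference of 2.25 ± 0.28 was called (adjusted p = 0.00196), at 1.20 with arrays scaled to equal spread. The gene was picked in part for its 6 d rise and its stage difference, which favours such a gap. AT5G47530 rose at 6 d alone in these calls, to 1.498 ± 0.093 (2.82-fold, adjusted p = 0.00341), from 0.03 ± 0.11 at 3 d (adjusted p = 0.852), and the difference of 1.47 ± 0.17 was called (adjusted p = 0.000799).

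The third rise at 6 d, AT4G12980, was named after its value was seen (0.75 ± 0.07, limma adjusted p = 0.00641). AT2G04850 fell at both stages, by 0.57 on the log2 scale at 3 d (adjusted p = 0.0348) and by 0.46 at 6 d (adjusted p = 0.0154), with each array below 0. AT3G25290 fell at 6 d alone in these calls (−1.27 ± 0.30, adjusted p = 0.0424) and was called in 1 of 4 fits from which 1 array was omitted.

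The 9 ARF genes share the description's wording and bind auxin response elements in promoters. At 3 d 4 fell of 8 tested (6.1% of all genes fell), and at 6 d 2 rose and 4 fell of 9 (26.7% of all genes in either direction). ARF1 (−0.49 and −0.78) and ARF4 (−0.57 and −0.36) fell at both stages, ETT fell at 3 d (−0.65, limma adjusted p = 0.0395) and rose at 6 d (0.27, adjusted p = 0.049), and ARF10 fell at 3 d (−0.71, adjusted p = 0.0392). The rise of ETT was called in 0 of 4 fits from which 1 array was omitted (limma adjusted p = 0.0921 to 0.16). The fall of ARF6 (−0.81) and ARF8 (−0.59) and the rise of NPH4 (0.47) were called at 6 d. NPH4 and ARF2 each had a second probe of opposite sign, NPH4 at −0.39 against 0.47 at 6 d and ARF2 at 0.34 against −0.30. Of the 4 TCP genes, 3 were tested at 3 d and 2 at 6 d, and 0 were called.

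**Figure D5:**
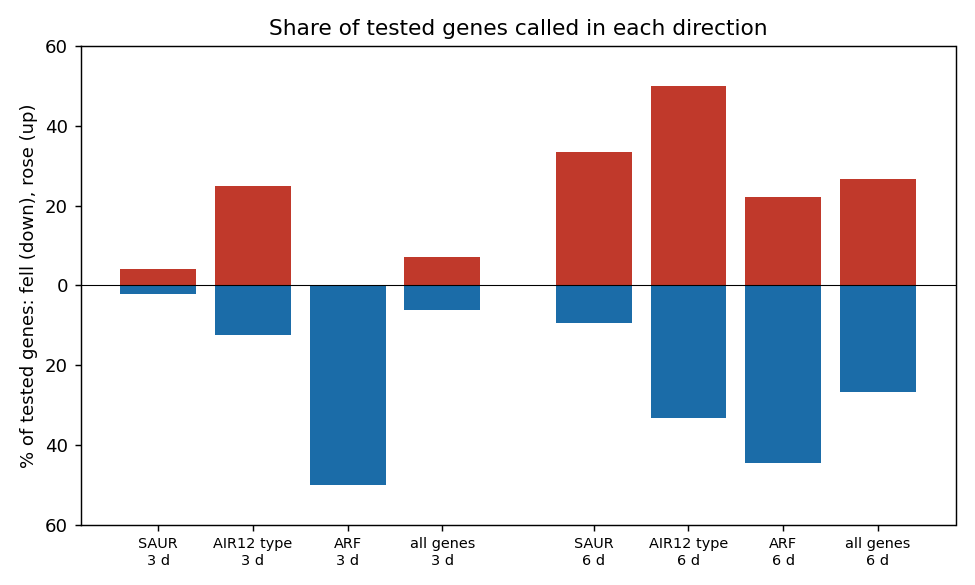
Share of tested genes that rose (red, upward) and fell (blue, downward) at 3 d and 6 d among SAUR genes, AIR12-type genes, ARF genes and all genes tested. At 6 d 33.3% of SAUR genes rose and 9.5% fell, against 26.7% of all genes in each direction, and the AIR12-type bars stand for 6 genes and the ARF bars for 9.

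The partners through which SAUR proteins are known to act were counted beside them, from lists chosen with earlier results of these data known. Of the plasma membrane proton pumps, which SAUR proteins keep active, 4 rose and 0 fell of 9 tested at 3 d and 6 rose and 0 fell of 10 at 6 d, where 7.01% and 26.7% of all genes rose. AHA10, known from the seed coat, was at 1.46 ± 0.24 at 6 d (limma adjusted p = 0.0188), HA4 at 1.06, HA3 at 0.97 and HA8 at 0.87, all called. Of the PP2C.D phosphatases, which SAUR proteins inhibit, 2 rose of 8 tested at 3 d (7.01% of all genes), and 1 of them, AT5G66080, had 3 arrays and an adjusted p of 0.135 with no dye term. At 6 d 1 rose (AT5G02760, 1.82 ± 0.11, adjusted p = 0.00321) and 4 fell of 9, among them AT4G33920 (−1.84 ± 0.11), AT3G51370 (−1.22 ± 0.08) and AT3G12620 (−0.63 ± 0.07). Over all genes tested at 6 d, 26.7% rose and 26.7% fell.

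Upstream of the SAUR genes, the auxin receptors were 0 called of 6 at 3 d, with 0.07 as their median log2 ratio. At 6 d 6 of 6 fell, against 26.7% of all genes, among them AFB5 (−1.40 ± 0.06, limma adjusted p = 0.00261), AFB4 (−1.23), TIR1 (−1.04) and GRH1 (−0.95). Of the activating ARFs, 1 of 4 tested fell at 3 d (MP, −0.82 ± 0.11, adjusted p = 0.0409; 6.1% of all genes fell). At 6 d 4 of 5 fell, with MP at −1.18 ± 0.15 (adjusted p = 0.0108) and ARF19 at −0.97, and NPH4 rose. Among PIF and BZR factors, growth regulators that also act on SAUR promoters, 0 of 5 were called at 3 d. At 6 d PIF4 fell (−1.90 ± 0.06, adjusted p = 0.00257) and BZR1 rose (1.01 ± 0.11, adjusted p = 0.00799), 2 of 5 called against 53.4% of all genes.

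Some markers of the surrounding seed tissues also rose. At 6 d 5 seed coat markers rose and 1 fell of 9 (median log2 ratio 1.58), 3 endosperm markers rose and 0 fell of 6 (median 1.59), and 3 embryo markers rose and 2 fell of 7 (median 0.79), where 26.7% of all genes rose and 26.7% fell. At 3 d 3 of 9 seed coat markers rose (median 0.38), 2 of 6 endosperm markers rose (median 0.14), and 6 of 8 embryo markers rose and 2 fell (median 0.91), where 7.01% of all genes rose and 6.1% fell. Summed over its list, the 3 d signal of seed coat markers was 103190 to 153008 in the bdl cross and 64529 to 103787 in the Col-0 cross, and that of endosperm markers was 10368 to 14333 and 5786 to 7256. Most of the endosperm sum came from MPC, at 6853 to 12620 in the bdl cross and 2764 to 5770 in the Col-0 cross. Each marker of both lists was above blank spots in 1 or both crosses on at least 1 array of 3 d. The part of these tissues in the SAUR ratios was not tested.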

How the data were processed

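RNA of isolated embryos was amplified and dye-coupled, and the replicates were biological, per the labels' protocols. For each 3 d spot the deposited files give a linear intensity of either cross. Median log2 ratios near 0 and dim blank spots were taken to mean that signals had been adjusted before deposit. The normexp and loess steps planned for raw signals were therefore left out of the main fit. Signals at the blank level were still uneven between channels. At 3 d, blank spots leaned to the bdl cross on replicates 1 and 4 (median log2 ratio 1.28 and 0.79). They leaned to the Col-0 cross on replicates 2 and 3 (−1.18 and −1.32). Squares of the deposited low intensities are whole numbers, for a reason not given in the sources used here. Scanner, software, normalization, slides and scan dates are likewise not given there. The 6 d values are log2 ratios from the table deposited by the authors (28399 rows). All 24661 rows with 2 or more 3 d values matched 1 spot each within 1e-06, with the bdl cross as numerator and uncentred. The other 3738 rows were left unnamed, and the 6 d direction was not checked against intensities. Medians of the 3 d columns were −0.014, 0.004, 0.003 and −0.006, and those of the 6 d columns −0.032, −0.034, −0.02 and −0.026. The share of equal values between arrays was 0% in each pair.

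All 97 genes were found in the RefSeq table of TAIR10.1, used for names and gene order. No probe or promoter sequences were used here. The limma package (3.58.1, R 4.3.3) tested each gene by lmFit and eBayes with a dye term per probe and Benjamini-Hochberg adjustment over all genes tested. Values were required on at least 3 arrays, in either dye orientation at least once, and, at 3 d, either signal above the 95th percentile of 1743 blank spots on at least 2 arrays. The fit gives both dye orientations equal weight. The stage difference used all 8 arrays with 1 shared dye term and no replicate block. Fits were checked on simulated data. The number of arrays limits the precision, and p-values reflect the spread among these samples alone.

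The genes named were every one called at 3 d, the 10 largest rises and 10 largest falls called at 6 d with 1 sign on every array, the 5 largest called stage differences, a list of well-studied SAUR genes and AIR12, genes whose probes differ in sign, and at most 4 called genes per pathway list. Members and lists were chosen with earlier results of these data known. Alternatives changed the dye term, the spread model, centring, scaling, probe choice, filters, an added 50 units of signal, loess, the block and single arrays.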

Additional observations from a re-analysis of the deposited data

Results flagged for a closer look

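For 14 of the 28 named genes with a tested stage difference, the log2 ratio differed between 6 d and 3 d by the limma fit of all arrays. The 6 d value was higher in SAUR2 (by 2.73), AT5G35735 (2.25), SAUR78 (2.08), SAUR8 (1.87), SAUR19 (1.73), SAUR65 (1.66), AT5G47530 (1.47), SAUR41 (1.27), ETT (0.92) and ARF10 (0.54). It was lower in AT1G29510 (−1.31), ARF6 (−0.80), ARF8 (−0.66) and ARF1 (−0.29). With the replicate block the adjusted p was 0.0624 for AT1G29510 and 0.1 for ARF1.

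A single array stood apart from the other 3 of its stage in 4 of 52 sets of 4 arrays, where chance gives about 1 in 20. All were at 6 d: AT2G04850 on replicate 2 (−0.32), SAUR72 on replicate 2 (−1.53), ETT on replicate 1 (0.13) and AT5G47530 on replicate 1 (1.24).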

How the results depend on the processing

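At 3 d, 10 genes were called, and 8 to 14 under the other settings with all arrays, except with no filter on dim probes, where 6 were. Calls over all genes moved as well. With an intensity trend in the spread, 2984 rose and 2738 fell of 19218, beside 5 and 8 of the 67 genes here. With both signals above blank spots on all 4 arrays, 2765 rose and 2608 fell of 13279, beside 7 and 7 of 39. The share called here was above that of all genes in the main fit (14.9% against 13.1%) and below it in these 2 fits. With the dye term grouped by the blank spots instead of the labels, 6 of the genes rose and 6 fell. Over all 19218 genes, 2484 rose and 2379 fell in that fit, against 1348 and 1173 with the dyes of the labels. Leaving out each array in turn with the dye term gave 0 calls in each fit, among these genes and over all genes. Of these genes, 16 to 22 of the 63 to 65 tested passed an unadjusted p of 0.05 by limma. Over all genes 4610 to 5358 of the 17513 to 18052 tested did, a like share. Such fits leave 1 residual degree of freedom at 6 d as well, where calls remained. Without the dye term, a fit chosen after seeing the data, the range was 6 to 11. At 6 d, 29 were called and 23 to 30 with all arrays in use; leaving out each array gave 13 to 24, and 20 to 26 without the dye term. Of the stage differences, 20 were called, 17 with replicate number as a block, and 14 to 19 with 1 array left out. The numbers share no deviations between stages (correlations of −0.04, −0.043, −0.078 and −0.074), so they were not taken to pair samples. ARF1 turned sign in the stage difference with arrays scaled to equal spread, to 0.15 (adjusted p = 0.348), and the cause was not tested; its call also ended with a dye term per stage (adjusted p = 0.0695) with the block (adjusted p = 0.1) and in 7 of 8 fits that left out 1 array (adjusted p = 0.0485 to 0.0924). Of 1372 values of named genes under alternatives, 1235 kept their side of the threshold (29 uncalled values among them turned sign), 111 lost and 25 gained a call, and 1 reversed. Signals at 6 d were not used here, so dim probes of that stage could not be left out.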
